A study of Mus musculus with 9 samples.

Results

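The 10 genes described here encode the main cytosolic and mitochondrial heat shock chaperones of the mouse, namely Hspa1a, Hspa1b, Hspa8, Hsph1, Dnaja1, Dnajb1, Hsp90aa1, Hsp90ab1, Hspd1 and Hspe1. They were chosen by gene symbol, and all 10 were found among the 18325 genes with values and the 22064 genes listed. Bulk RNA-seq was performed on neutrophils sorted from lung as CD45+ CD11b+ cells by their surface Ly6g after collagenase digestion, with 3 libraries in each of 3 groups. The Ly6Ghi and Ly6Glow groups were Ly6g-high and Ly6g-low neutrophils from female BALB/c mice with macrometastatic lungs, after 4T1-LM3 cells, a lung-tropic derivative of the 4T1 mammary carcinoma line, had been placed in the mammary fat pad. The NL group was Ly6g-high neutrophils from normal lungs of female BALB/c mice, with no tumor cells given. No allele was altered in any group. The mice were bought at 6 to 8 weeks of age, and their age at sorting was not given. Whether a library came from 1 mouse or from several pooled mice was not stated, so the p-values measure the spread between libraries, which may be technical. The description field of the NL libraries names the Ly6g-high group alone, so that their place in normal lung rests on the title and treatment fields.

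Heat shock proteins are molecular chaperones that keep other proteins folded. HSP70 proteins bind exposed hydrophobic stretches of a client, J-domain proteins deliver the client and start ATP hydrolysis, and nucleotide exchange factors such as HSP110 reset the cycle, after which many signaling proteins pass on to HSP90. In the mitochondrial matrix the HSP60 chaperonin folds imported proteins under the HSP10 lid. Heat and other proteotoxic stress switch on the inducible genes through heat shock factor 1 (HSF1), which binds heat shock elements, inverted repeats of the letters GAA, in their promoters. Tissue dissociation with warm enzymes is also known to induce several of these genes, and all groups here went through such a digestion.

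Estimated counts summed to 17200354, 17841807 and 17004235 in the Ly6Ghi libraries, 15267177, 16553629 and 16277066 in the Ly6Glow libraries and 17171045, 16570344 and 16996574 in the NL libraries. The 10 chaperone genes took 0.499%, 0.503% and 0.499% of the counts in Ly6Ghi, 0.254%, 0.259% and 0.252% in Ly6Glow and 0.439%, 0.429% and 0.436% in NL. Their share was thus lowest in every Ly6Glow library. The inducible pair Hspa1a and Hspa1b made up 46.2%, 46.6% and 46.3% of these chaperone counts in Ly6Ghi, 37.0%, 37.4% and 36.1% in Ly6Glow and 22.6%, 19.6% and 21.7% in NL. At the low end, Hspe1 had 64, 85 and 72 counts and Hsph1 had 102, 111 and 101 counts in the Ly6Glow libraries, so that these 2 genes were measured with the largest counting error.

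The sort was checked against marker genes. Ly6g, which encodes the surface antigen of the sort, was at 379.8, 361 and 380.1 CPM (counts scaled to library depth with edgeR's TMM factors) in Ly6Ghi, 385, 403 and 394 CPM in Ly6Glow and 120.2, 120.2 and 118 CPM in NL. Ly6g RNA was not lower in the Ly6g-low sort in CPM, and its difference between the sorts was small and not called: the log2 fold change of Ly6Glow over Ly6Ghi was 0.08 ± 0.03 (SE) with edgeR's quasi-likelihood test and a Benjamini-Hochberg adjusted p of 0.0577, and it turned to -0.16 on the log2(FPKM + 1) scale. FPKM are fragment counts scaled for both transcript length and library depth. All 10 neutrophil markers (S100a9 the most abundant) were called higher in both macrometastatic groups than in NL, with summed levels of 73258, 71410 and 72103 CPM in Ly6Ghi, 76507, 78203 and 78153 CPM in Ly6Glow and 18549, 18634 and 18373 CPM in NL. Between the sorts, 4 of these 10 markers were called higher and 1 lower in Ly6Glow than in Ly6Ghi.

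Markers of other lung cells were higher in the NL libraries. The 8 epithelial or tumor cell markers, led by the surfactant gene Sftpc, summed to 109, 109.7 and 104 CPM in Ly6Ghi, 112, 112 and 106 CPM in Ly6Glow and 1241, 1105 and 1211.5 CPM in NL. The 5 endothelial markers, led by Pecam1, summed to a mean of 119 CPM in Ly6Ghi, 148 CPM in Ly6Glow and 796 CPM in NL. The 5 fibroblast markers, led by Col3a1, summed to 53.0, 54.9 and 533 CPM in the same order. All 5 endothelial and all 5 fibroblast markers were called lower in each macrometastatic group than in NL, as were 8 of the 8 epithelial or tumor cell markers in Ly6Ghi and 7 of the 8 in Ly6Glow.

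The 11 alveolar macrophage markers were led by Chil3, which maturing neutrophils also transcribe, and summed to 1596.5, 1546 and 1563 CPM in Ly6Ghi, 375, 397 and 383 CPM in Ly6Glow and 2065.5, 2104 and 2059 CPM in NL. Without Chil3 the means were 295 CPM, 108 CPM and 1112 CPM. Of these 11 markers, 7 were called lower in Ly6Glow than in Ly6Ghi. Mean sums in Ly6Ghi, Ly6Glow and NL were 703, 715 and 868 CPM for the 10 monocyte or macrophage markers (Csf1r the most abundant). For the 5 eosinophil markers they were 82.8, 36.7 and 42.0 CPM, but 51.4, 7.25 and 3.33 CPM without the most abundant, Siglecf, which is also on the alveolar macrophage list. Of these 5, 4 were called higher in Ly6Ghi than in NL and 4 lower in Ly6Glow than in Ly6Ghi, so that eosinophil marker RNA, like that of Hspa1a and Hspa1b, was highest in Ly6Ghi. The sums were 57.2, 38.0 and 105 CPM for the 9 T or NK cell markers (Cd3d) and 46.8, 28.9 and 28.5 CPM for the 5 B cell markers (Cd79a). The B cell sum was thus also highest in Ly6Ghi. Of these 5 markers, 3 were called higher in Ly6Ghi than in NL and 5 lower in Ly6Glow than in Ly6Ghi. No marker of these lists was at 0 throughout a group. In bulk samples fewer cells of a type and less RNA per cell cannot be told apart, and the part of these other cells in the chaperone values was not tested.

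Libraries of a group differed little from each other, with 1 exception. The chi-square per gene between libraries of a group was 1.41 to 2.51 in the macrometastatic groups and 1.48 between NL replicates 1 and 3, but 5.31 and 4.05 between NL replicate 2 and these, so that this library stood apart. Results were therefore also taken without it. The largest move of any of the 10 genes was 0.08 on the log2 scale, for Hspa1a, and the 1 call among the 10 genes that changed is given with that gene.

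The comparisons with NL also depended on how libraries were scaled. TMM factors were 0.945 to 0.9504 in Ly6Ghi, 0.803 to 0.807 in Ly6Glow and 1.30 to 1.32 in NL. Relative to TMM, upper-quartile factors moved the median log2 fold change of all genes by -0.19 in both comparisons with NL, and the log2(FPKM + 1) scale moved it by -0.27 in Ly6Ghi against NL, -0.41 in Ly6Glow against NL and -0.12 in Ly6Glow against Ly6Ghi. With a pseudocount of 0.1 these shifts were -0.37, -0.62 and -0.23. Of all called genes, 41.8%, 41.3% and 36.8% were higher in the group named first with TMM, and 42.9%, 44.6% and 45.3% with DESeq2's size factors, which moved the median by 0.02, 0.09 and 0.07. On the log2(FPKM + 1) scale these shares were 21.9%, 14.95% and 14.2%, and with a pseudocount of 0.1 they were 22.6%, 15.3% and 11.9%. Directions that changed with the scaling are given beside each gene.

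The stress-inducible HSP70 proteins are encoded by the neighboring genes Hspa1a (NCBI Gene 193740, chr17:34969359-34972156) and Hspa1b (NCBI Gene 15511, chr17:34956429-34959238), both on the minus strand of the mouse build GRCm38.p6 and 10120 bases apart. Their promoters are printed because the pair moved together and because reads cannot always be assigned to one of them. Each sequence is the 200 bases before the annotated start, from RefSeq, on the gene's strand and 5′ to 3′. Capitals mark a match to the heat shock element, searched as GAANNTTC or TTCNNGAA, which read the same on both strands. The windows lie at chr17:34972157-34972356 and chr17:34959239-34959438.
Hspa1a: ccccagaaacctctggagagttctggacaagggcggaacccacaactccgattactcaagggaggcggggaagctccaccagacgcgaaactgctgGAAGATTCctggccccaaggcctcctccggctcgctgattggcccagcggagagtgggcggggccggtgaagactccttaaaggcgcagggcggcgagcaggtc
Hspa1b: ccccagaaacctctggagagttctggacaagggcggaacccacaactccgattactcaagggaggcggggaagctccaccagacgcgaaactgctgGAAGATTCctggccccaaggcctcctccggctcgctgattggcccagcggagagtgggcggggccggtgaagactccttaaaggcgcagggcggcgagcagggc
These 200-base stretches differed at 1 base, and the match GAAGATTC began 104 bases before the start site in both. The transcripts were alike too: of all 100-base windows of the Hspa1a transcript 47.1% also occurred in Hspa1b, and of those of Hspa1b 49.9% occurred in Hspa1a, so that the split of reads between the 2 genes is uncertain and their sum is the safer value.

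Hspa1a stood at 1146, 1149.9 and 1141 CPM in the Ly6Ghi libraries, 528, 545 and 510.5 CPM in the Ly6Glow libraries and 392, 309 and 356 CPM in the NL libraries. Hspa1b stood at 1295, 1319 and 1292 CPM in Ly6Ghi, 636, 663 and 621 CPM in Ly6Glow and 372, 327 and 367 CPM in NL. Every Ly6Ghi library was thus far above the rest for both genes, and Ly6Glow lay between Ly6Ghi and NL with no overlap in CPM. Against NL, Hspa1a rose 3.25-fold in Ly6Ghi (log2 fold change 1.70 ± 0.05 SE, edgeR's adjusted p = 8.18e-18) and Hspa1b 3.66-fold (1.87 ± 0.04, edgeR's adjusted p = 1.43e-20). Against Ly6Ghi, Hspa1a was lower in Ly6Glow by 2.17-fold (-1.12 ± 0.05, edgeR's adjusted p = 8.33e-14) and Hspa1b by 2.03-fold (-1.02 ± 0.04, edgeR's adjusted p = 3.07e-15). The summed counts of the 2 genes gave log2 fold changes of 1.79 in Ly6Ghi against NL, 0.72 in Ly6Glow against NL and -1.07 in Ly6Glow against Ly6Ghi. As a share of all counts, without TMM factors, Ly6Glow and NL overlapped, at 0.0939%, 0.0970% and 0.0911% against 0.0991%, 0.0842% and 0.0945%.

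The difference between Ly6Glow and NL was smaller and rested on the scaling. With TMM the log2 fold change of Hspa1a was 0.58 ± 0.05 (edgeR's adjusted p = 1.34e-09), just past the threshold of 0.58, but it was 0.39 with upper-quartile factors and turned to -0.11 on the log2(FPKM + 1) scale. It was not called without NL replicate 2 (0.50), which held the lowest Hspa1a value of all libraries, nor without Ly6Glow replicate 2 (0.57). Hspa1b was at 0.85 ± 0.04 with TMM (edgeR's adjusted p = 1.22e-14) and at 0.15, not called, on the log2(FPKM + 1) scale. In FPKM the Hspa1a values of Ly6Glow (155, 159 and 149.6) overlapped those of NL (185, 149 and 169). Relative to the median of all genes on the same scale, Hspa1a in Ly6Glow over NL was at 0.74 with TMM and 0.45 on the log2(FPKM + 1) scale.

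Hspa8 (NCBI Gene 15481, chr9:40801276-40805202) encodes the constitutive HSP70 of the cytosol, which folds new proteins and uncoats clathrin vesicles. Its level was 1436, 1437 and 1416 CPM in Ly6Ghi, 896, 896 and 894 CPM in Ly6Glow and 1195, 1186 and 1178 CPM in NL. The groups did not overlap, with Ly6Glow lowest. Hspa8 was 1.60-fold lower in Ly6Glow than in Ly6Ghi (log2 fold change -0.68 ± 0.03, edgeR's adjusted p = 5.24e-15). Against NL it did not pass the fold threshold, with log2 fold changes of 0.27 ± 0.03 in Ly6Ghi, which turned to -0.20 on the log2(FPKM + 1) scale, and -0.41 ± 0.03 in Ly6Glow, which was called with upper-quartile factors (-0.60) and on the log2(FPKM + 1) scale (-1.10). Of the 100-base windows of its transcript 62.8% occurred also in transcripts of 7 other annotated genes, chiefly Gm15459, so its level is uncertain where the counting split such reads.

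Hsph1 (NCBI Gene 15505, chr5:149616843-149636498, minus strand) encodes HSP110, the exchange factor that frees ADP and client from HSP70 and, with J-domain proteins, helps to dissolve aggregates. Its promoter is shown because it carried the largest fall of the 10 genes. The stretch at chr5:149636316-149636515 precedes 1 of the 2 Hsph1 start sites that have a promoter window, and most of it lies within the annotated gene span, which begins further upstream.
Hsph1: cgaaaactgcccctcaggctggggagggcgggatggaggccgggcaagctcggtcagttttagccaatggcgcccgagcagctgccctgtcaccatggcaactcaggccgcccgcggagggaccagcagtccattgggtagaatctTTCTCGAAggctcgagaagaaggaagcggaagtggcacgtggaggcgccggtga
The match began 54 bases before this start site, and a longer match, TTCTGGAAAGTTC, began 15 bases after it. Hsph1 was at 24.1, 23.8 and 22.2 CPM in Ly6Ghi, 8.28, 8.35 and 7.70 CPM in Ly6Glow and 39.7, 39.5 and 39.1 CPM in NL. All 3 groups lay apart, in the order NL, Ly6Ghi, Ly6Glow, an order other than that of Hspa1a and Hspa1b, which were highest in Ly6Ghi. Its log2 fold change was -0.75 ± 0.06 in Ly6Ghi against NL (edgeR's adjusted p = 3.14e-11), -2.28 ± 0.07 in Ly6Glow against NL (edgeR's adjusted p = 6.77e-18) and -1.53 ± 0.08 in Ly6Glow against Ly6Ghi (edgeR's adjusted p = 4.17e-13). The last 2 are falls of 4.86-fold and 2.88-fold.

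Dnaja1 (NCBI Gene 15502, chr4:40722468-40734965, plus strand) and Dnajb1 (NCBI Gene 81489, chr8:83608175-83612653, plus strand) encode the J-domain proteins DNAJA1 and DNAJB1 (HSP40), which stimulate the ATPase of HSP70. Dnaja1 was at 297, 293 and 288 CPM in Ly6Ghi, 329, 345 and 337 CPM in Ly6Glow and 206, 212 and 213 CPM in NL. It was the single gene of the 10 whose mean CPM was highest in Ly6Glow, an order that did not hold in FPKM, where the 3 groups overlapped at means of 83.1 ± 1.19 (SD, n = 3) in Ly6Ghi, 81.2 ± 1.71 in Ly6Glow and 82.4 ± 2.12 in NL. With TMM, Dnaja1 was called higher in Ly6Glow than in NL (log2 fold change 0.68 ± 0.03, edgeR's adjusted p = 1.79e-14), but it was at 0.49, not called, with upper-quartile factors and at -0.02 on the log2(FPKM + 1) scale. It was not called in Ly6Ghi against NL (0.48 ± 0.03) or in Ly6Glow against Ly6Ghi (0.20 ± 0.03, turning to -0.03 on the log2(FPKM + 1) scale).

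Dnajb1 was at 129, 132 and 135 CPM in Ly6Ghi, 108, 119.7 and 108 CPM in Ly6Glow and 93.6, 81.7 and 91.8 CPM in NL. Its CPM ranked the groups as those of Hspa1a and Hspa1b did, with no overlap, over a much narrower span. No comparison was called: the log2 fold changes were 0.57 ± 0.05 in Ly6Ghi against NL, 0.33 ± 0.05 in Ly6Glow against NL, which turned to -0.35 on the log2(FPKM + 1) scale, and -0.24 ± 0.05 in Ly6Glow against Ly6Ghi. The first of these lay at the threshold and passed it with DESeq2 (0.59), without a filter on low counts (0.59) and without Ly6Ghi replicate 1 (0.59), NL replicate 1 (0.60), NL replicate 3 (0.59) or any 1 of the Ly6Glow libraries (0.58 each). It was further from the threshold with upper-quartile factors (0.38), on the log2(FPKM + 1) scale (0.11) and without NL replicate 2 (0.52).

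The cytosolic HSP90 proteins, which stabilize kinases and steroid receptors, come from the inducible gene Hsp90aa1 (NCBI Gene 15519, chr12:110691036-110696395) and the constitutive gene Hsp90ab1 (NCBI Gene 15516, chr17:45567778-45573261). Hsp90aa1 was at 392, 388 and 386 CPM in Ly6Ghi, 307, 301 and 312 CPM in Ly6Glow and 277, 301 and 276 CPM in NL. Hsp90ab1 was at 504, 501 and 519.8 CPM in Ly6Ghi, 304, 323 and 309 CPM in Ly6Glow and 727, 697 and 728 CPM in NL. The inducible gene was thus highest in Ly6Ghi and the constitutive gene highest in NL, and in Ly6Glow their CPM came close to each other, though CPM takes no account of transcript length.

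Hsp90ab1 was 2.30-fold lower in Ly6Glow than in NL (log2 fold change -1.20 ± 0.03, edgeR's adjusted p = 7.78e-19) and 1.63-fold lower than in Ly6Ghi (-0.70 ± 0.03, edgeR's adjusted p = 9.32e-14). In Ly6Ghi against NL it was at -0.50 ± 0.03, under the threshold with TMM and past it with upper-quartile factors (-0.69) and on the log2(FPKM + 1) scale (-0.96). Hsp90aa1 was called in none of the 3 comparisons with TMM, at 0.45 ± 0.04 in Ly6Ghi against NL, 0.11 ± 0.04 in Ly6Glow against NL and -0.34 ± 0.04 in Ly6Glow against Ly6Ghi. Its direction against NL was not stable: on the log2(FPKM + 1) scale it was at -0.01 in Ly6Ghi and at -0.59, a call, in Ly6Glow, and with upper-quartile factors at -0.08 in Ly6Glow. Of the 100-base windows of the Hsp90aa1 transcript 47.55% occurred in other genes, chiefly Gm12346, whereas Hsp90ab1, Hsph1 and Dnajb1 shared none with another gene.

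Hspd1 (NCBI Gene 15510, chr1:55077833-55088243, minus strand) and Hspe1 (NCBI Gene 15528, chr1:55088148-55091317, plus strand) encode HSP60 and HSP10 of the mitochondrial chaperonin and are transcribed away from each other, with annotated transcripts that overlap by 96 bases. The promoter before Hspe1, at chr1:55087948-55088147, is printed because both genes fell together and it lies between the Hspe1 start and an Hspd1 start. It lies wholly within the annotated Hspd1 span. The window of the Hspd1 start at the upstream end of that span held 0 matches.
Hspe1: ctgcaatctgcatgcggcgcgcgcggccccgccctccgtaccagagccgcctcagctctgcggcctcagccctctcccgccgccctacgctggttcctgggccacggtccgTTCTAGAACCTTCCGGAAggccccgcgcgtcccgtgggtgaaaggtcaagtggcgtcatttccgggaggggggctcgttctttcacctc
The capitals mark an 18-base stretch of overlapping matches that holds a longer, 13-letter form of the element, in which GAA and TTC alternate 3 times with any 2 letters between them. It began 89 bases before the Hspe1 start, and on the other strand, as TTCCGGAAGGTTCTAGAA, it began 144 bases before an Hspd1 start. Hspd1 was at 42.9, 41.6 and 42.2 CPM in Ly6Ghi, 22.7, 23.9 and 25.7 CPM in Ly6Glow and 63.1, 73.2 and 67.7 CPM in NL. Hspe1 was at 10.9, 9.56 and 11.1 CPM in Ly6Ghi, 5.20, 6.40 and 5.49 CPM in Ly6Glow and 16.5, 17.0 and 18.1 CPM in NL. The 3 groups lay apart for both genes, with NL highest and Ly6Glow lowest. That order was shared by the mean marker sums of alveolar macrophages without Chil3, at 1112, 295 and 108 CPM. T or NK cell markers had it too, at 105, 57.2 and 38.0 CPM. The part of these cells in the values of Hspd1 and Hspe1 was not tested.

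In Ly6Ghi against NL the log2 fold changes were -0.69 ± 0.06 for Hspd1 (edgeR's adjusted p = 1.71e-10) and -0.71 ± 0.08 for Hspe1 (edgeR's adjusted p = 7.72e-08). In Ly6Glow against NL they were -1.497 ± 0.06 (edgeR's adjusted p = 1.45e-15) and -1.59 ± 0.10 (edgeR's adjusted p = 1.88e-12), falls of 2.82-fold and 3.01-fold. In Ly6Glow against Ly6Ghi they were -0.81 ± 0.07 (edgeR's adjusted p = 1.41e-09) and -0.88 ± 0.11 (edgeR's adjusted p = 7.73e-07). Of the 100-base windows of the transcripts, 26.9% of those of Hspd1 and 20.4% of those of Hspe1 occurred also in other genes.

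**Figure D1:**
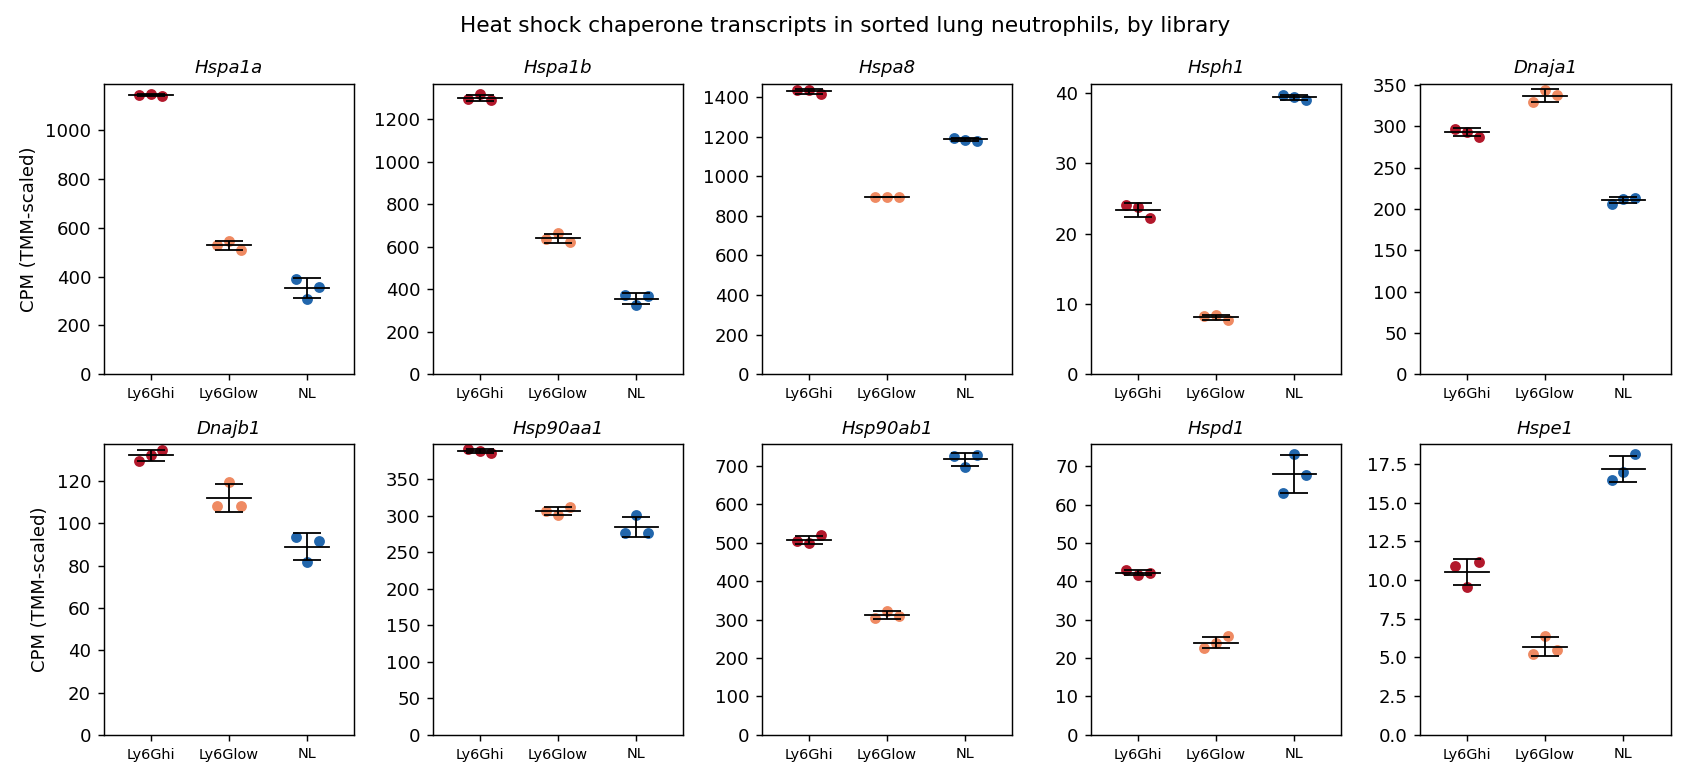
TMM-scaled CPM of the 10 chaperone genes in each library (points), with the mean (line) and SD (bars) of the 3 libraries of a group; each panel has its own axis from 0. Hspa1a and Hspa1b were highest in Ly6Ghi, while Hsph1, Hsp90ab1, Hspd1 and Hspe1 were highest in NL and lowest in Ly6Glow. Dnaja1 was highest in Ly6Glow in CPM but not in FPKM, in which its groups overlapped. The place of the NL mean for Hspa1a, Hspa8, Dnajb1 and Hsp90aa1 changed with the scaling.

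Counted over the 10 genes, 2 were called higher in Ly6Ghi than in NL (Hspa1a and Hspa1b), where 26.3% of the 14108 tested genes were called higher, and 3 were called lower (Hsph1, Hspd1 and Hspe1), where 36.6% of all genes were. The remaining 5 were not called. In Ly6Glow against NL 3 were called higher (Hspa1a, Hspa1b and Dnaja1), against 28.7% of all genes, and 4 lower (Hsph1, Hsp90ab1, Hspd1 and Hspe1), against 40.8%. These shares are near those of all genes, so the counts against NL say little of the chaperones as a group, and on the log2(FPKM + 1) scale limma called 0 of the 10 higher in Ly6Glow than in NL, against 1129 of 13033 genes. In Ly6Glow against Ly6Ghi 7 of the 10 were called lower, all but Dnaja1, Dnajb1 and Hsp90aa1, where 15.9% of all genes were called lower. With edgeR 0 were called higher, where 9.29% of all genes were. 1 gene, Dnaja1, was higher at an unadjusted p under 0.05. Its adjusted p passed too (edgeR's adjusted p = 1.92e-05), but its log2 fold change of 0.20 was under the threshold. DESeq2 and limma on log2(FPKM + 1) also called 0 higher.

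The CPM of the groups did not overlap for 10 of the 10 genes in any comparison, a separation also seen in 85.2% of all tested genes in Ly6Ghi against NL, 86.8% in Ly6Glow against NL and 62.1% in Ly6Glow against Ly6Ghi. The median log2 fold change of the 10 genes was 0.36 in Ly6Ghi against NL (-0.09 over all tested genes), which turned to -0.10 on the log2(FPKM + 1) scale (-0.36 over all genes). It was -0.15 in Ly6Glow against NL (-0.16 over all genes), or -0.85 on the log2(FPKM + 1) scale (-0.56 over all genes), where 6 of the 10, and 6423 of 13033 genes, were called lower. It was -0.76 in Ly6Glow against Ly6Ghi (-0.04 over all genes). Both comparisons with NL share the NL libraries and are not independent. Without NL replicate 2 the counts were 2 higher and 3 lower in Ly6Ghi and 2 higher and 4 lower in Ly6Glow.

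**Figure D2:**
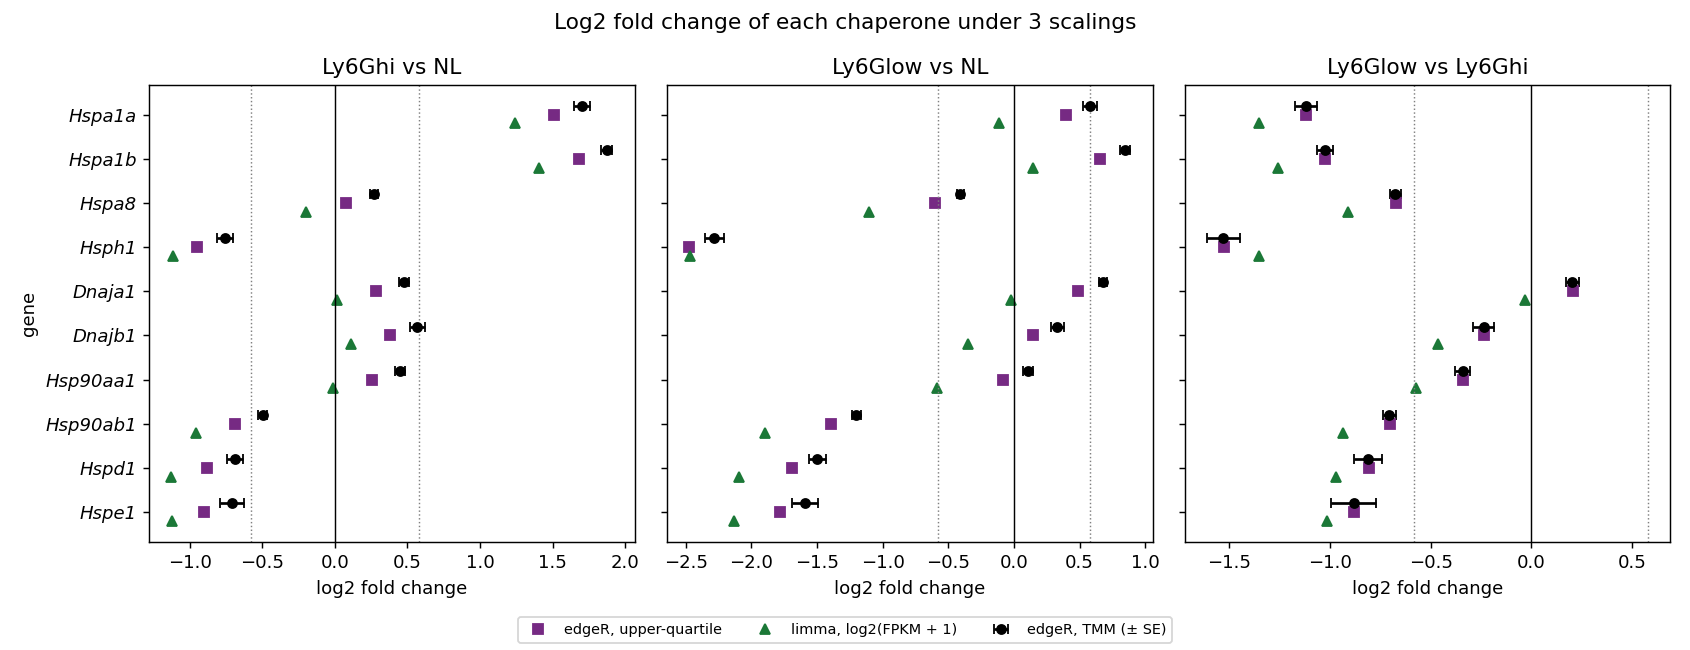
Log2 fold change (horizontal axis) of the 10 genes in the 3 comparisons, from edgeR with TMM factors (circles, bars are SE), edgeR with upper-quartile factors (squares) and limma on log2(FPKM + 1) (triangles); dotted lines mark the threshold of 0.58 on either side of 0. In Ly6Glow against Ly6Ghi circles and squares nearly coincided and the triangles turned only the sign of Dnaja1, whereas against NL they turned the sign of Hspa8 and Hsp90aa1 in Ly6Ghi and of Hspa1a, Dnaja1, Dnajb1 and Hsp90aa1 in Ly6Glow.

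Ratios between genes of the same library do not depend on how libraries are scaled. The ratios were chosen after the values had been seen and are given as a description with no test. The FPKM of Hspa1a plus Hspa1b over that of Hspa8 was 1.27, 1.28 and 1.28 in Ly6Ghi, 0.969, 1.01 and 0.943 in Ly6Glow and 0.477, 0.400 and 0.458 in NL. The ratio was thus highest in Ly6Ghi and lowest in NL without overlap, though its distance from 1 is uncertain because Hspa8 shares most of its sequence windows with other genes. The mean ratio was 2.87-fold higher in Ly6Ghi and 2.19-fold higher in Ly6Glow than in NL, and how much of this lay in the inducible genes and how much in Hspa8 depended on the scale. In FPKM the difference between Ly6Glow and NL lay mostly in Hspa8 (351 against 755), with Hspa1a at 155 against 168 and Hspa1b at 187 against 168.5, whereas in CPM Hspa8 was at 895 against 1187, Hspa1a at 528 against 352 and Hspa1b at 640.1 against 356.

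The FPKM ratio of Hsp90aa1 to Hsp90ab1, again the inducible over the constitutive gene, was 0.682, 0.681 and 0.651 in Ly6Ghi, 0.886, 0.818 and 0.885 in Ly6Glow and 0.334, 0.379 and 0.333 in NL. Its order differed from that of the HSP70 ratio, with Ly6Glow above Ly6Ghi and NL lowest, and no libraries of 2 groups overlapped. The FPKM ratio of the exchange factor gene Hsph1 to Hspa8 went the other way, at 0.00992, 0.0100 and 0.00919 in Ly6Ghi, 0.00555, 0.00554 and 0.00516 in Ly6Glow and 0.0199, 0.0199 and 0.0199 in NL. Hspa1a plus Hspa1b over Hsph1 was accordingly 132 ± 6.60 (SD, n = 3) in Ly6Ghi, 179.7 ± 4.30 in Ly6Glow and 22.4 ± 1.99 in NL.

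For the J-domain genes the FPKM ratio of Dnaja1 to Hspa8 was 0.126 ± 0.00124 (SD, n = 3) in Ly6Ghi, 0.2315 ± 0.00542 in Ly6Glow and 0.109 ± 0.00267 in NL. That of Dnajb1 to Hspa8 was 0.0647 ± 0.00169, 0.0875 ± 0.00518 and 0.0523 ± 0.00373. Both were highest in Ly6Glow and lowest in NL, without overlap. The mitochondrial pair behaved otherwise: Hspd1 over Hspe1 was 1.25 ± 0.0903 in Ly6Ghi, 1.32 ± 0.155 in Ly6Glow and 1.24 ± 0.0971 in NL, and the groups overlapped, so that any difference in this ratio was within the spread of the libraries. Without NL replicate 2 the NL means were 0.468 for Hspa1a plus Hspa1b over Hspa8 and 0.334 for Hsp90aa1 over Hsp90ab1.

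**Figure D3:**
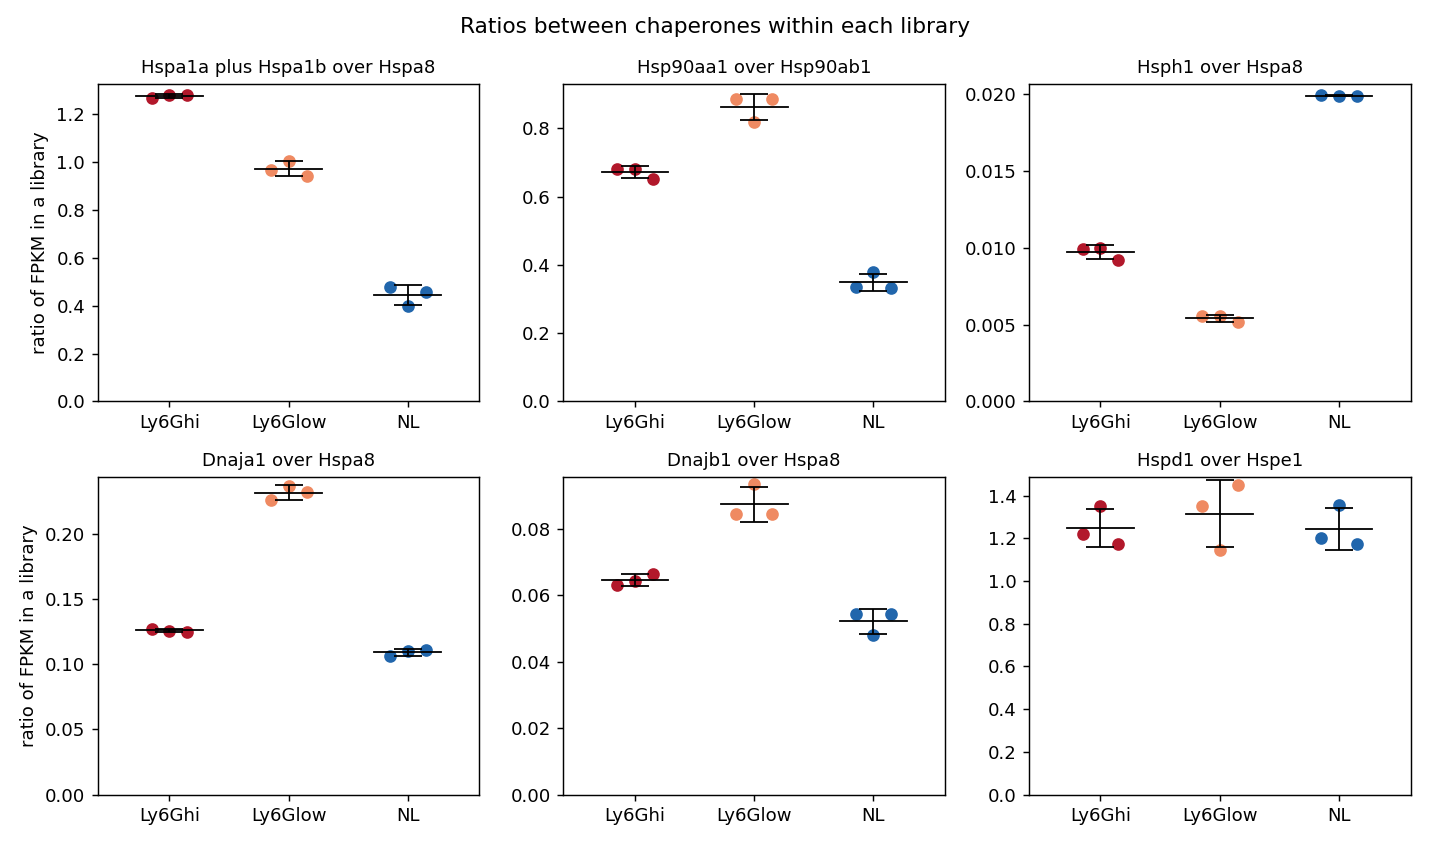
Ratio of FPKM between 2 chaperone genes, or the sum of Hspa1a and Hspa1b over Hspa8, within each library (points), with mean (line) and SD (bars) of 3 libraries; axes start at 0. The inducible over constitutive ratios of HSP70 and HSP90 were lowest in NL, the Hsph1 to Hspa8 ratio was highest in NL at 0.0199, and the Hspd1 to Hspe1 ratio overlapped between all groups.

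In FPKM, which allows levels to be compared between genes, Hspa8 came first in every group, at 659.8 ± 4.61 (SD, n = 3) in Ly6Ghi, 351 ± 0.850 in Ly6Glow and 755 ± 7.44 in NL. By mean FPKM it ranked 90 among all genes in Ly6Ghi, 201 in Ly6Glow and 52 in NL. In both macrometastatic groups Hspa1b, Hspa1a, Hsp90ab1, Hsp90aa1, Dnaja1, Dnajb1, Hspd1, Hspe1 and Hsph1 followed in that order, from 447 ± 5.54 to 6.40 ± 0.335 FPKM in Ly6Ghi and from 187 ± 5.91 to 1.90 ± 0.0781 FPKM in Ly6Glow, and no neighbors in the order overlapped. In NL Hsp90ab1 was second at 382 ± 5.99 FPKM, ahead of Hspa1b at 168.5 ± 10.1 and Hspa1a at 168 ± 18.2 FPKM, which overlapped each other. Dnajb1 (39.5 ± 2.48 FPKM) and Hspd1 (38.8 ± 3.24 FPKM) also overlapped in NL. Hsph1 was last in every group. The order of Hspa1b and Hspa1a rests on the uncertain split of the reads they share.

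Genes with the most similar profiles were sought over the 9 libraries by Pearson's r of log2 CPM, among 7397 other genes with a mean of at least 10 CPM. Hspa1a was most like Tecr (r = 0.998), Sept5 (r = 0.996) and Rap1gap2 (r = 0.996) outside the chaperones, and its r with Hspa1b was 0.991. With Hsp90aa1 it was 0.951, with Dnajb1 0.949, with Hspa8 0.55 and with Dnaja1 0.54. With Hsph1, Hsp90ab1, Hspe1 and Hspd1 it was -0.15, -0.24, -0.27 and -0.30. Hspd1 was most like Htatsf1 (r = 0.998), Canx (r = 0.997) and Phactr2 (r = 0.997). The r of Hspd1 was 0.986 with Hspe1, 0.989 with Hsp90ab1, 0.981 with Hsph1 and 0.63 with Hspa8. It was -0.95 with Dnaja1, -0.53 with Dnajb1, -0.41 with Hspa1b, -0.30 with Hspa1a and -0.17 with Hsp90aa1. Because the libraries fall into 3 groups, these values mostly reflect 3 group means: 272 of the genes had r above 0.95 with Hspa1a and 492 with Hspd1.

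Of the chaperone genes, 7 of 10 had RefSeq promoter windows of 300 bases, from 250 before to 50 after a start site, 12 windows in all. Hspa8, Hsp90aa1 and Hsp90ab1 had none in the table used. The 8-letter element, GAANNTTC or TTCNNGAA, was found in a window of 6 of these 7 genes (Hspa1a, Hspa1b, Hsph1, Dnaja1, Hspd1 and Hspe1) and in 15.1% of all 32851 windows. By gene it was in 17.0% of 27025 genes. The 13-letter form, 3 alternating GAA and TTC units with any 2 letters between them on either strand, contains the 8-letter one and was found in 3 genes (Hsph1, Hspd1 and Hspe1) and in 0.603% of all windows, or 0.662% of genes. A match is a run of letters and not a bound site. The 3 genes with the longer form were all called lower in Ly6Ghi and Ly6Glow than in NL. So were 36.6% and 40.8% of all tested genes. Hspd1 and Hspe1 hold the same stretch, read on opposite strands, so they are not separate cases. Hspa1a and Hspa1b, with the shorter form, rose in Ly6Ghi, where 26.3% of all tested genes were called higher. A link between the form of the element and the direction of change was not tested. The Dnaja1 stretch at chr4:40722268-40722467 on the plus strand, with the match in capitals, is printed as the contrasting case of a gene whose FPKM did not differ between groups beyond their spread. The other Dnaja1 windows, at starts further downstream, held 0 matches.
Dnaja1: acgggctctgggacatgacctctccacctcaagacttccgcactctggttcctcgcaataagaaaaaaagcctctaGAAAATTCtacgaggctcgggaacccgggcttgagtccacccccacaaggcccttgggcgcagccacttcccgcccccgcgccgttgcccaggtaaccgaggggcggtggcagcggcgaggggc

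**Figure D4:**
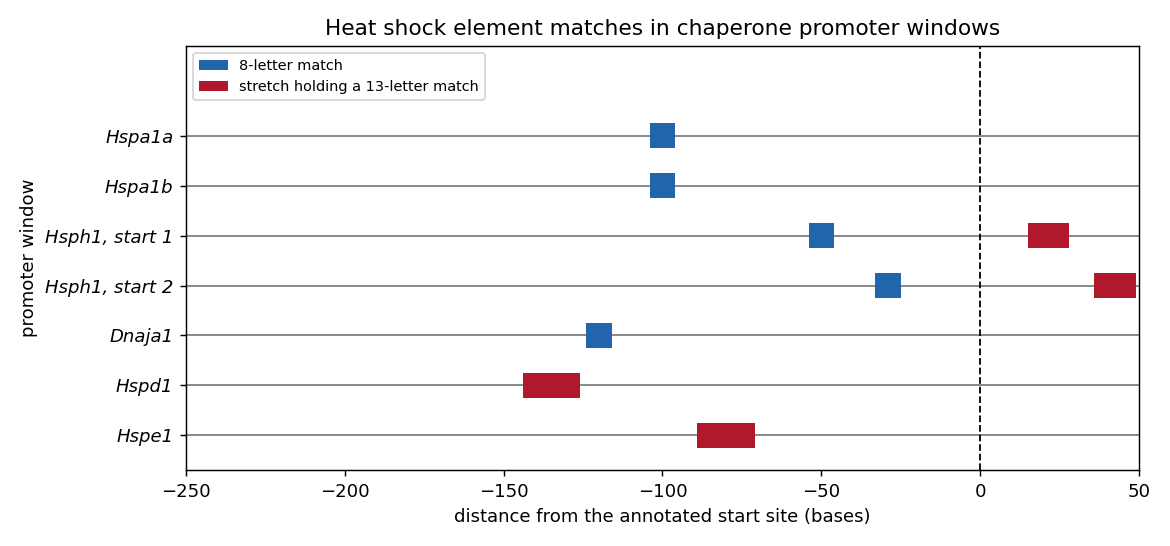
Position of heat shock element matches relative to the annotated start site (dashed line, distance in bases) in the promoter windows of the chaperone genes that hold one, with each gene read 5′ to 3′ and Hsph1 shown for both start sites that have a window. Blue blocks are 8-letter matches, as at 104 bases before the Hspa1a and Hspa1b starts, and red blocks are stretches that hold a 13-letter match, as in Hsph1, Hspd1 and Hspe1.

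Among the heat shock factors and their binding partners, 4 of 5 listed genes were tested. Hsf1, the factor that drives the heat shock response, was at 8.43, 9.50 and 9.22 CPM in Ly6Ghi, 8.85, 8.50 and 9.00 CPM in Ly6Glow and 19.1, 15.8 and 19.9 CPM in NL. All NL libraries lay above all others, while Ly6Ghi and Ly6Glow overlapped. The log2 fold change of Hsf1 was -1.01 ± 0.09 in Ly6Ghi (edgeR's adjusted p = 1.21e-09) and -1.06 ± 0.10 in Ly6Glow (edgeR's adjusted p = 1.58e-09) against NL, so the Hsf1 transcript fell where Hspa1a and Hspa1b rose in Ly6Ghi. Hsbp1, a small HSF1-binding protein, was called higher in Ly6Glow than in NL with TMM (0.59 ± 0.06, edgeR's adjusted p = 1.37e-08), but not without NL replicate 2 or with upper-quartile factors (0.40), and it turned to -0.10 on the log2(FPKM + 1) scale. On the list, 2 of 4 were called lower in Ly6Ghi and 3 of 4 lower and 1 higher in Ly6Glow against NL, and 1 of 4 was lower in Ly6Glow against Ly6Ghi, with medians of -0.65, -1.06 and -0.21. Among all tested genes 36.6%, 40.8% and 15.9% were called lower in these comparisons, and 28.7% higher in Ly6Glow against NL.

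The HSP70 nucleotide exchange factors and co-chaperones had their largest falls in Bag3, an HSF1-induced exchange factor that links HSP70 to autophagy. Bag3 was at 12.9, 13.4 and 13.2 CPM in Ly6Ghi, 6.09, 5.72 and 5.72 CPM in Ly6Glow and 49.1, 44.5 and 48.0 CPM in NL. It thus had the group order of Hsph1 and not that of Hspa1a. Bag3 fell by 1.84 on the log2 scale in Ly6Ghi (edgeR's adjusted p = 3.22e-17) and by 3.01 in Ly6Glow (edgeR's adjusted p = 2.33e-19) against NL, and its log2 fold change was -1.17 ± 0.10 in Ly6Glow against Ly6Ghi (edgeR's adjusted p = 1.29e-09). Of the 10 genes on this list 4 were called lower in each macrometastatic group against NL and 3 in Ly6Glow against Ly6Ghi. Over all tested genes 36.6% and 40.8% were lower against NL and 15.9% in Ly6Glow against Ly6Ghi. On the log2(FPKM + 1) scale 9 of the list were tested, of which 5, 8 and 1 were lower. On that scale 5127, 6423 and 1929 of 13033 genes were lower. The medians of the list with TMM were -0.44, -0.48 and -0.21, against -0.09, -0.16 and -0.04 over all genes.

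Over all tested genes 26.3%, 28.7% and 9.29% were called higher and 36.6%, 40.8% and 15.9% lower in the 3 comparisons. Of 9 other HSP70 and HSP110 genes, 1 was called higher and 4 lower in each macrometastatic group against NL, and 1 lower in Ly6Glow against Ly6Ghi. Their medians were -0.18, -0.60 and 0.10 with TMM and -0.93, -0.99 and -0.09 on the log2(FPKM + 1) scale, so that the last turned. Hspa13, a microsomal HSP70, was at 0.95 ± 0.06 in Ly6Ghi, not called on the log2(FPKM + 1) scale (0.49), and at 1.36 ± 0.06 in Ly6Glow against NL. Hspa12b, an HSP70 relative of endothelial cells, was at -2.63 ± 0.13 and -2.53 ± 0.14. The sum of the endothelial markers was also lower in both groups than in NL, and the part of endothelial cells in the Hspa12b values was not tested. Of 19 other J-domain genes, beside the same shares of all genes, 5 were called higher and 7 lower in Ly6Ghi against NL. In Ly6Glow 5 were higher and 10 lower against NL, and 1 higher and 4 lower against Ly6Ghi. The medians of the 19 were -0.23, -0.59 and -0.18. On the log2(FPKM + 1) scale 0 of the 19 were higher and 10 lower by limma in each comparison with NL, where of 13033 genes 1438 were higher and 5127 lower in Ly6Ghi and 1129 higher and 6423 lower in Ly6Glow. Dnajc5, which encodes the cysteine string protein of secretory vesicles, was at 0.79 ± 0.03 and 1.04 ± 0.03 against NL with TMM, but not called on the log2(FPKM + 1) scale (0.32 and 0.33). Dnaja3, the mitochondrial J-domain partner, was at -1.06 ± 0.10 and -1.77 ± 0.12. Between the sorts, with Ly6Glow over Ly6Ghi, Dnajb2 was at 0.99 ± 0.07 (0.69 on the log2(FPKM + 1) scale) and Dnajc9, a histone chaperone, at -0.90 ± 0.13.

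Of 15 HSP90 co-chaperones, 5 were called higher and 3 lower in Ly6Ghi against NL, 6 higher and 4 lower in Ly6Glow against NL, and 1 higher and 5 lower in Ly6Glow against Ly6Ghi. The shares of all tested genes were 26.3%, 28.7% and 9.29% higher and 36.6%, 40.8% and 15.9% lower. On the log2(FPKM + 1) scale 2 of the 15 were higher and 4 lower in Ly6Ghi, and 0 higher and 8 lower by limma in Ly6Glow, against NL. On that scale 1438 of 13033 genes were higher and 5127 lower in Ly6Ghi, and 1129 higher and 6423 lower in Ly6Glow. The median of the 15 was 0.13 in Ly6Ghi and 0.09 in Ly6Glow against NL with TMM but -0.31 and -0.59 on the log2(FPKM + 1) scale, and it was -0.22 in Ly6Glow against Ly6Ghi. The immunophilin genes Fkbp5 and Fkbp4 went opposite ways against NL. Fkbp5, a glucocorticoid-induced gene, was at 1.41 ± 0.05 in Ly6Ghi and 1.18 ± 0.05 in Ly6Glow (the latter 0.45, not called, on the log2(FPKM + 1) scale). Fkbp4 was at -1.33 ± 0.06 and -2.15 ± 0.08. Ppid, on the same list, was not called in either comparison (0.13 and -0.39). Fkbp4 was at 16.2, 15.8 and 14.5 CPM in Ly6Ghi, 8.85, 8.43 and 9.07 CPM in Ly6Glow and 41.3, 37.2 and 38.6 CPM in NL. For Ly6Glow over Ly6Ghi Cdc37l1, a relative of the kinase co-chaperone Cdc37, was at 0.66 ± 0.06 (0.40, not called, on the log2(FPKM + 1) scale) and the phosphatase gene Ppp5c at -0.93 ± 0.11.

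The small heat shock proteins hold unfolded clients without ATP. Of 8 tested, 1 was called higher and 5 lower in each macrometastatic group against NL, at medians of -2.80 in Ly6Ghi and -2.44 in Ly6Glow. Several of these calls rest on few reads. Mean CPM in Ly6Ghi, Ly6Glow and NL was 0.73, 1.14 and 0.42 for Hspb9, the gene called higher. Among those called lower it was 0.04, 0.13 and 0.66 for Hspb2 and 0.14, 0.18 and 1.11 for Hspb7. Hspb1, Hspb8 and Cryab, also called lower, were at 32.0, 9.03 and 15.4 CPM in NL. Over all tested genes 26.3% and 28.7% were higher and 36.6% and 40.8% lower, at medians of -0.09 and -0.16. On the other scale, log2(FPKM + 1), the medians of the list were -1.21 and -1.05, and limma called 0 of 7 higher and 5 lower in each. On that scale 5127 and 6423 of 13033 genes were lower and 1438 and 1129 higher, at medians of -0.36 and -0.56. The median of the list in Ly6Glow against Ly6Ghi was 0.19, which turned to -0.15 on the log2(FPKM + 1) scale. Hspb1 was at -2.84 ± 0.10 in Ly6Ghi and Cryab at -2.91 ± 0.15 in Ly6Glow, both of them genes of epithelium, muscle and stroma. The epithelial, endothelial and fibroblast marker sums were also higher in NL, and the part of such cells in the values of Hspb1 and Cryab was not tested. Only Hspb11 of the 8 listed genes was called in Ly6Glow against Ly6Ghi, at 0.80 ± 0.11 with TMM and 0.47, not called, on the log2(FPKM + 1) scale. Whether its product acts as a chaperone was not tested.

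The cytosolic chaperonin CCT folds actin and tubulin, which the prefoldin complex delivers. Over all tested genes 26.3% and 28.7% were called higher and 36.6% and 40.8% lower against NL, and 15.9% lower in Ly6Glow against Ly6Ghi. Among the 14 genes of both complexes, calls against NL were 3 higher and 2 lower in Ly6Ghi and 3 higher and 7 lower in Ly6Glow, and 5 were lower in Ly6Glow against Ly6Ghi. On the log2(FPKM + 1) scale 1 was higher and 4 lower in Ly6Ghi and 1 higher and 9 lower in Ly6Glow against NL, and 7 were lower in Ly6Glow against Ly6Ghi, where of 13033 genes 5127, 6423 and 1929 were lower in the 3 comparisons. Their median with TMM was -0.02, -0.55 and -0.49 in the same order. The subunit gene Cct3 was at 20.9, 21.0 and 21.3 CPM in Ly6Ghi, 10.8, 9.93 and 11.4 CPM in Ly6Glow and 45.9, 45.9 and 47.4 CPM in NL, without overlap. Its log2 fold changes were -1.14 ± 0.06, -2.11 ± 0.07 and -0.97 ± 0.08. The prefoldin subunit gene Vbp1 was at 1.18 ± 0.06 in Ly6Ghi and 1.34 ± 0.06 in Ly6Glow against NL.

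Of 14 mitochondrial chaperone and protease genes, 2 were called higher and 7 lower in Ly6Ghi against NL, 1 higher and 9 lower in Ly6Glow against NL, and 4 lower in Ly6Glow against Ly6Ghi. The shares of all tested genes were 26.3%, 28.7% and 9.29% higher and 36.6%, 40.8% and 15.9% lower. Called by limma on the log2(FPKM + 1) scale, 9, 11 and 4 of the 14 were lower and 0 higher. On that scale 5127, 6423 and 1929 of 13033 genes were lower and 1438, 1129 and 320 higher. The medians of the 14 with TMM were -0.69, -1.21 and -0.47, with the sign of those of Hspd1 and Hspe1. Trap1, the HSP90 of the mitochondrial matrix, was at 11.9, 11.2 and 10.5 CPM in Ly6Ghi, 5.77, 5.95 and 4.50 CPM in Ly6Glow and 26.1, 26.2 and 26.1 CPM in NL. Trap1 had the group order of the HSP60 and HSP10 genes. Its log2 fold changes were -1.22 ± 0.07, -2.28 ± 0.09 and -1.06 ± 0.11 (edgeR's adjusted p = 1.28e-12, 6.55e-16 and 3.66e-08). Yme1l1, an inner membrane protease, was at 0.65 ± 0.05 and 0.98 ± 0.05 against NL with TMM, but at 0.19 and 0.27, not called, on the log2(FPKM + 1) scale.

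Immediate early genes, which handling and digestion of tissue are known to induce along with Hspa1a and Hspa1b, were read beside the chaperones. Of 16, 3 were called higher and 8 lower in Ly6Ghi against NL, 5 higher and 5 lower in Ly6Glow against NL, and 7 higher and 2 lower in Ly6Glow against Ly6Ghi, where 9.29% of all genes were higher and 15.9% lower. Against NL 26.3% and 28.7% of all tested genes were higher and 36.6% and 40.8% lower. On the log2(FPKM + 1) scale limma called 0 of the 16 higher and 8 lower in Ly6Ghi against NL, 2 higher and 8 lower in Ly6Glow against NL, and 3 higher and 2 lower in Ly6Glow against Ly6Ghi, where 320 of 13033 genes were higher and 1929 lower. Against NL 1438 of all genes were higher and 5127 lower in Ly6Ghi, and 1129 higher and 6423 lower in Ly6Glow. The median of the 16 was 0.50 in Ly6Glow against Ly6Ghi (0.26 on the log2(FPKM + 1) scale), where that of the chaperones was -0.76. Against NL it was -0.36 in Ly6Ghi and 0.11 in Ly6Glow, the latter turning to -0.59 on the log2(FPKM + 1) scale. Fosb, a subunit of the AP-1 factor, was at 145, 147 and 144 CPM in Ly6Ghi, 201, 205 and 207 CPM in Ly6Glow and 733, 651 and 705 CPM in NL. All NL libraries lay far above the rest for Fosb, at -2.26 ± 0.04 in Ly6Ghi against NL (edgeR's adjusted p = 6.05e-22).

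Egr2, a zinc finger factor, was at -2.67 ± 0.06 and Ier3, a survival gene, at 1.41 ± 0.03 in Ly6Glow against NL. In Ly6Ghi against NL Zfp36, which encodes the mRNA-decay factor tristetraprolin, was at 0.88 ± 0.03, not called on the log2(FPKM + 1) scale (0.42). Between Ly6Glow and Ly6Ghi Fosl1 was at 1.15 ± 0.06 and Jun at -0.60 ± 0.04, the latter not called with DESeq2's size factors (-0.53). Jun was also called higher in Ly6Ghi than in NL with TMM (0.61 ± 0.04), and so was highest in Ly6Ghi like Hspa1a, but it was not called on the log2(FPKM + 1) scale (0.15), with upper-quartile factors (0.42) or without NL replicate 2 (0.57). The part of tissue handling in the immediate early genes or the chaperones was not tested.

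**Figure D5:**
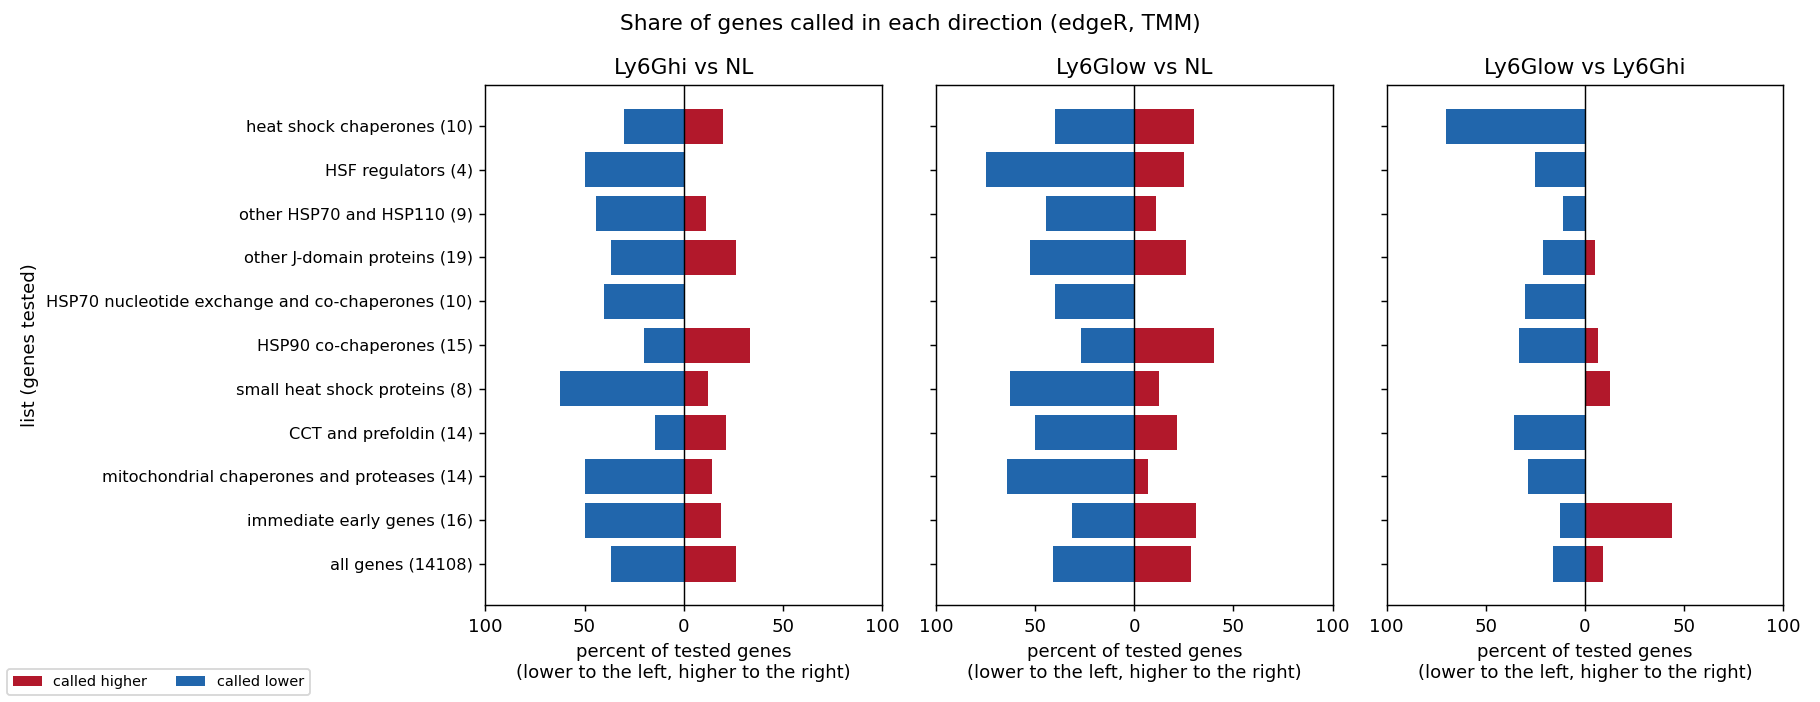
Percent of tested genes called higher (red, to the right) or lower (blue, to the left) in each comparison by edgeR with TMM factors, for the 10 chaperones, 9 lists of related genes and all tested genes, with the number of genes tested in brackets. In Ly6Glow against Ly6Ghi 7 of the 10 chaperones were called lower, against 15.9% of all genes, and 7 of the 16 immediate early genes were called higher, against 9.29% of all genes, or 3 on the log2(FPKM + 1) scale, against 320 of 13033 genes; the signs of single genes under the other scalings are given with those genes.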

How the data were processed

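Estimated counts and FPKM values per gene were deposited by the authors for 9 libraries. The labels describe strand-specific Illumina libraries and RNA from cell lines, whereas the study's methods name sorted lung neutrophils and BGI as the sequencing provider. The genome build was mm10 per the submitters' processing notes, and the aligner and counter are not given in the sources used here. Only 37.9% of the count entries were integers, and each was rounded before testing. The submitters' FPKM are scaled for transcript length and depth, and no TMM factor was applied to them.

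Tests were run in R 4.3.3 with edgeR 4.0.16 (TMM, filterByExpr, quasi-likelihood F test, 1 fit of all 9 libraries by group). Of 18325 genes with values 14108 were tested. A gene was called at a Benjamini-Hochberg adjusted p of at most 0.05 over all tested genes if its log2 fold change was also more than 0.58 from 0. FPKM were tested with limma 3.58.1 on log2(FPKM + 1), with at least 0.5 FPKM in 3 libraries. Alternatives were DESeq2 1.42.0 or its size factors, upper-quartile factors, no filter, 6 libraries at a time, other thresholds and pseudocounts, a replicate block, summed Hspa1a and Hspa1b, and leaving out each library.

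Median quasi-dispersion was 0.882 and the biological coefficient of variation 0.0346, so abundant genes were measured precisely. The members and lists were chosen with earlier results of these data known. Genes outside the 10 were named by rule: Ly6g, Hsf1, per list and comparison the called gene with the largest change in each direction (no overlap, at least 10 CPM in the higher group), the 3 genes most like Hspa1a or Hspd1, and the most abundant marker of each list. Transcript windows were compared in GENCODE M21, and gene positions and promoters came from RefSeq (GRCm38.p6).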

Additional observations from a re-analysis of the deposited data

How the results depend on the processing

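In Ly6Glow against Ly6Ghi, 7 chaperones lower was found with each other normalization, tool and left-out library, and 3 with a fold threshold of 1. Without a fold threshold 9 were lower and 1 (Dnaja1) was higher there. All genes called in that comparison were 7868 without a fold threshold, 1305 with a threshold of 1, 2249 on log2(FPKM + 1) and 2243 on log2(FPKM + 1) with no filter, against 3560. In Ly6Ghi against NL, 6 chaperones were higher without a fold threshold and 0 were lower with a threshold of 1. In Ly6Glow against NL the number higher was 5 without a fold threshold, 0 with a threshold of 1, 1 with upper-quartile factors and 0 on log2(FPKM + 1), with or without a filter, or log2(FPKM + 0.1). Signs turned on log2(FPKM + 1), with or without a filter, in Ly6Ghi against NL for Hspa8 (-0.20) and Hsp90aa1 (-0.0132), in Ly6Glow against NL for Hspa1a (-0.11), Dnaja1 (-0.0207), Dnajb1 (-0.35) and Hsp90aa1 (-0.59), and in Ly6Glow against Ly6Ghi for Dnaja1 (-0.0332). With a pseudocount of 0.1 these were -0.20, -0.0133, -0.11, -0.0209, -0.36, -0.59 and -0.0336. With upper-quartile factors Hsp90aa1 turned to -0.0823 in Ly6Glow against NL. FPKM were used as submitted, without TMM factors, which were 0.945 to 0.9504 in Ly6Ghi, 0.803 to 0.807 in Ly6Glow and 1.30 to 1.32 in NL. The FPKM scale is thus the same libraries under another scaling and not a separate measurement. The part of these factors in the turned signs was not tested. Leaving out 1 library gave 8875 to 9081, 9805 to 9983 and 3387 to 3613 genes called in the 3 comparisons. Same-numbered libraries did not deviate together (correlations of -0.07 to 0.08, against -0.10 to 0.14 for libraries of different numbers). With 3 libraries of small spread in a group, this cannot show whether the numbers mark shared mice. A replicate block gave 8856, 9775 and 3522 genes called and changed no call among the 10 chaperones. Depth limits Hspe1 and Hsph1 most, at 64 to 111 counts in Ly6Glow.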
